A study of Mus musculus with 8 samples.

Results

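Bdh1, Cpt1a, Cpt2, Acadm, Ehhadh, Pdk4 and Fgf21 are 7 genes of fatty acid oxidation, ketone body metabolism and the fasting response, and they were followed across mouse liver development. They were chosen by name, and all 7 were found among the 22059 genes listed for each library and among the 17081 genes that passed the filter on low counts. The libraries were made from poly(A)-selected RNA of whole liver of wild-type FVB mice, given as FVB/NJ in the Methods, at embryonic day 18 (E18), postnatal day 14 (P14), postnatal day 28 (P28) and the adult stage of 3 months, with 2 libraries per stage. The labels name no altered allele and no agent for any group. The labels give no sex, feeding state or time of day for these livers, and a general passage of the Methods names males for 3-month tissue. The paper describes the pairs as biological duplicates, but the labels do not name the animals, so the p-values below measure the spread between the deposited samples.

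Fatty acids are burned in the liver in steps that these genes span. The long-chain acyl group is passed to carnitine by Cpt1a on the outer mitochondrial membrane and carried inwards by the translocase Slc25a20. It is returned to coenzyme A by Cpt2 on the inner membrane. Dehydrogenases such as Acadm then oxidize the chain, which later steps shorten. Very long chains and dicarboxylic acids are shortened in peroxisomes, where Ehhadh carries the hydratase and dehydrogenase activities. Acetyl-CoA from these routes feeds ketone body synthesis, and Bdh1 interconverts acetoacetate and 3-hydroxybutyrate. Pdk4 phosphorylates and switches off pyruvate dehydrogenase, which spares glucose carbon, and Fgf21 encodes a hormone that the liver secretes in fasting and under amino acid or endoplasmic reticulum stress. Many of these genes are known targets of PPARα, a nuclear receptor activated by fatty acids, and the liver of a suckling pup is known to receive a diet rich in milk fat.

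The depth was high, with 68154675 to 106055723 reads on genes per library, and levels are given as counts per 1000000 reads (CPM) scaled by TMM, a method that sets the bulk of genes equal between libraries. Whole liver is a mixture, and its make-up differed between stages. Hepatocyte markers, which define the labelled tissue, were present throughout. None of the 20 was at 3 reads or fewer in both libraries of any stage, and their summed level was 68290 to 73610 CPM at E18, then 359600 to 363000 (P14), 240600 to 259000 (P28) and 149900 to 169700 (adult). Much of that sum was albumin, Alb, whose mean was 163500 CPM at P14 and 57800 in adult, and from P14 to adult 8 of the 20 markers rose and 6 fell, with a median log2 change of 0.05. All 12 erythroid markers fell from E18 to P14 (edgeR, false discovery rate, FDR, below 0.1), and their sum was 11560 to 14780 CPM at E18 against 442.7 to 464.3 at P14 and 96.53 to 106.3 in adult. All 20 hepatocyte markers rose over the same interval, with a median log2 change of 2.22, so that every change from E18 below moved with the composition of the tissue. Summed pancreatic acinar markers were at 243.2 to 523.9 CPM at E18, 35.96 to 36.23 at P14 and 108.9 to 122.7 in adult, where 7 of 10 were at 3 reads or fewer in both libraries. The adult sum was nearly all Cela1, which rose 9.39-fold from E18 to a mean of 111.6 CPM, while Pnliprp1 and Cpa1 were at 0 in adult. The part of these markers in the results was not tested. In bulk tissue, fewer cells of a type and less RNA per cell cannot be told apart.

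The genes lie apart in the genome, on GRCm38 with GENCODE M21: Cpt1a at chr19:3322334-3385733 on the plus strand, Bdh1 at chr16:31422280-31458901 on the plus strand, and on the minus strand Cpt2 at chr4:107903981-107923610, Acadm at chr3:153922357-153944632, Ehhadh at chr16:21761287-21787807, Pdk4 at chr6:5483351-5496309 and Fgf21 at chr7:45613886-45615490. The reads were counted on mm9, the build in the submitters' processing notes, and no coordinate was converted. The upstream windows of Fgf21 and Cpt1a, the members with the largest increases from E18 to P14, and of Pdk4, the member with the largest decrease from P14 to adult, are printed here from RefSeq on GRCm38.p6. Each run is the 250 bases before a transcript start, 5′ to 3′ on the strand of the gene, at chr7:45615491-45615740 (minus strand) for Fgf21, chr19:3323051-3323300 (plus strand) for Cpt1a and chr6:5496279-5496528 (minus strand) for Pdk4. The RefSeq starts of Cpt1a and Pdk4 used here lie within the genes as GENCODE draws them, after the GENCODE starts, so the annotations differ in where these genes begin. Capitals mark matches, on either strand, to the motifs described in the next paragraph.
Fgf21: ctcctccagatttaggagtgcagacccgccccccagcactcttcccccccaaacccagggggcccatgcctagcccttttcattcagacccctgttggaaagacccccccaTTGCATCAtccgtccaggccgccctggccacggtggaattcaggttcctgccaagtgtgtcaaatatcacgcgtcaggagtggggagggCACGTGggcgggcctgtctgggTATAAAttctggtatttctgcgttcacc
Cpt1a: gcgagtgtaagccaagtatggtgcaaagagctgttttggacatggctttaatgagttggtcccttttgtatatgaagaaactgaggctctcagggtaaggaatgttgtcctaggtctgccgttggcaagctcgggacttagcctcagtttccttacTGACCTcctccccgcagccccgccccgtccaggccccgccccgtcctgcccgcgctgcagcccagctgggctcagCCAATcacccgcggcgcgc
Pdk4: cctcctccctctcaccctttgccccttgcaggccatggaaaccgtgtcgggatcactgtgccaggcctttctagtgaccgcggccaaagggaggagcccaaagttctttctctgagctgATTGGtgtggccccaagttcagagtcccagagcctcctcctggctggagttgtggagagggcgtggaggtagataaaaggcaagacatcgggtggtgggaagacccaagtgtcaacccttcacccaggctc

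The 7 genes had 8 such windows, since Bdh1 has a pair of starts, among 32851 windows in all. The full PPAR response element searched, AGGTCANAGGTCA, a direct repeat of a half-site with 1 base between, was in 0 of the 8 windows and in 0.0335% of all windows. Its half-site AGGTCA, which that repeat contains, was in the windows of Cpt1a (94 to 89 bases before the start, opposite strand) and Acadm (249 to 244 bases, opposite strand) and in 14.0% of all windows. In Fgf21, the amino acid response element TTGCATCA lay 139 to 132 bases before the start and occurs in 0.791% of all windows, the E-box CACGTG lay 50 to 45 bases before it (6.02%), and the TATA box TATAAA 28 to 23 bases before it (12.4%). The CCAAT box CCAAT was in Cpt1a (19 to 15 bases), Pdk4 (131 to 127 bases, opposite strand) and Ehhadh (38 to 34 bases, opposite strand) and in 33.8% of all windows. Both strands were searched for every motif. A match is a description of the letters and not of a bound site. The full PPAR response element is too rare in these letters for its absence from 8 windows to carry weight. Variant spellings and more distant sites were not searched.

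The first comparison asked how the genes changed between the late fetus and the suckling pup. All 7 rose from E18 to P14 at FDR below 0.1, where 38.2% of all genes tested rose and 39.3% fell. All 7 also passed the 3-fold threshold of the study, as 13.8% of genes did in that direction, and in all 7 both P14 libraries lay above both E18 libraries, while the libraries of the 2 stages did not overlap for 86.6% of genes in one direction or the other. The median gene changed by -0.03 on the log2 scale. The folds ran from 3.12 for Pdk4 to 56.1 for Fgf21. From E18 to adult 6 genes rose (39.5% of all genes rose) and Pdk4 fell (43.8% fell), and 5 of them rose over 3-fold (16.8%), all but Bdh1.

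**Figure D1:**
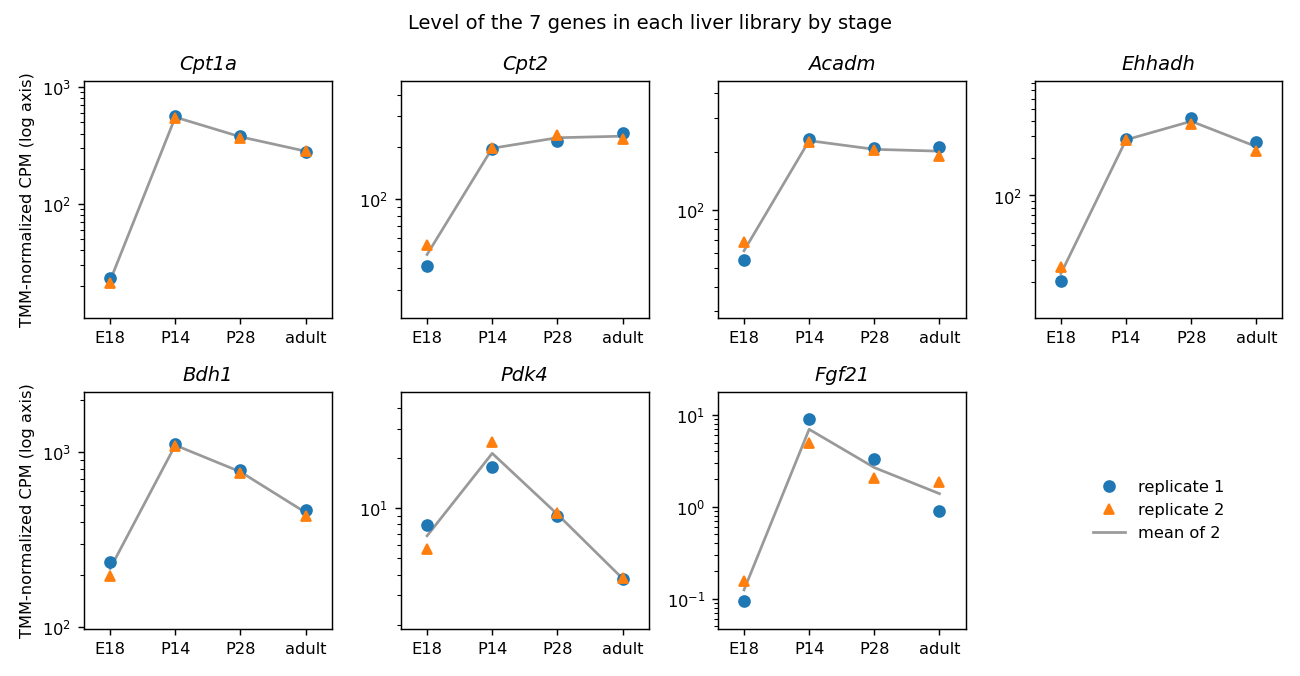
Level of each gene in every library as TMM-normalized CPM on a log axis, by stage, with both replicates as points and their mean as a line. For 6 genes the E18 points sit lowest, Pdk4 is lowest in adult at 3.78 and 3.80 CPM, and Ehhadh and Cpt2 are the genes whose mean at P28 lies above that at P14.

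After P14 the genes parted. From P14 to P28, Bdh1, Cpt1a, Pdk4 and Fgf21 fell (28.6% of all genes fell), Ehhadh rose (25.2% rose), and Cpt2 and Acadm did not pass the test. None of the 7 fell over 3-fold in that interval, where 5.98% of genes did. From P28 to adult, Bdh1, Cpt1a, Ehhadh and Pdk4 fell (13.2% of genes fell), none rose (7.94% rose), and none fell over 3-fold (2.24%). Taking P14 directly against adult, Bdh1, Cpt1a, Pdk4 and Fgf21 fell (32.1% of genes fell), none rose (29% rose), and Pdk4 and Fgf21 fell over 3-fold (11.1%). Markers of other liver cells fell over the same interval, with 6 of 6 endothelial (median log2 -1.78), 7 of 7 Kupffer cell (-0.94), 8 of 8 neutrophil (-7.23) and 5 of 6 stellate markers (-0.92), and their part in these falls was not tested. These 5 comparisons share libraries and are not independent of each other.

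Per transcript length, Bdh1 was the highest of the 7 at every stage, and the order of the others changed. By RPKM (reads on a gene divided by its transcript length in kilobases and by each 1000000 reads mapped), the only unit here that allows genes to be compared, the order at E18 was Bdh1 (95.4), Acadm (48.7), Cpt2 (29.8), Ehhadh (11.4), Cpt1a (7.51), Pdk4 (2.90) and Fgf21 (0.192), and no neighbours in it overlapped between duplicates. At P14 Cpt1a had moved from the fifth place to the second, at 104 RPKM, where its libraries (101 and 107) overlapped those of Acadm (97.7 and 102). At P28 the second place was held by Ehhadh, at 103.6 RPKM, above Acadm at 88.0. In adult the order of the first 5 was that of E18, with Bdh1 at 108.6, Acadm at 87.1, Cpt2 at 78.4, Ehhadh at 65.5 and Cpt1a at 52.5 RPKM. Fgf21 and Pdk4 were the lowest at each stage, and from P14 on their duplicates overlapped.

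Cpt1a, the gate of long-chain fatty acids into mitochondria, was low in the fetus, highest at P14 and in between thereafter. It stood at 23.1 and 21.0 CPM at E18, then 563 and 543 (P14), 382 and 368 (P28) and 279 and 286 (adult). No libraries of neighbouring stages overlapped. The rise to P14 was 25.1-fold (log2 4.65, SE 0.11, FDR 6.2e-09), and the falls to P28 (log2 -0.56, SE 0.10, FDR 0.0015) and from P28 to adult (log2 -0.41, SE 0.10, FDR 0.023) left it 12.8-fold above E18. The last of these falls rests on both stages' duplicates, since it was -0.38 (FDR 0.15) without P28 replicate 1 and -0.39 (FDR 0.13) and -0.43 (FDR 0.10) without adult replicate 1 or 2. The form of the carnitine palmitoyltransferase 1 mRNA changed with it. Within each library, Cpt1a made up 56.0 and 57.4% of the summed RPKM of Cpt1a, Cpt1b and Cpt1c at E18, 99.0 and 98.8% at P14 and 98.1 and 98.3% in adult, a ratio that no scaling between libraries can alter. The muscle form Cpt1b took 30.1% (SD 1.62, n = 2) at E18 and 0.693% (SD 0.0376, n = 2) at P14, and the brain form Cpt1c 13.1% (SD 0.626, n = 2) and 0.408% (SD 0.0551, n = 2). By TMM both fell from E18 to P14, Cpt1b by 1.60 and Cpt1c by 1.16 on the log2 scale. Cpt1b lies next to Chkb on the same strand, and reads running between them could not be separated here. Summed skeletal muscle markers were at 7.87 to 9.90 CPM at E18, 0.709 to 8.12 at P14 and 1.01 to 1.25 in adult, with 1 of 4 tested markers falling from E18 to P14, and their part in the Cpt1b level was not tested.

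Cpt2, the inner-membrane partner, rose less and did not come down. It stood at 41.2 and 54.7 CPM at E18, then 196 and 197 (P14), 216 and 236 (P28) and 239 and 221 (adult). The E18 libraries lay below all others, while those of P28 and adult overlapped. It rose 4.10-fold to P14 (log2 2.03, SE 0.14, FDR 1.4e-06). The later changes were 0.20 (95% interval -0.10 to 0.50, FDR 0.25) from P14 to P28 and 0.03 (-0.27 to 0.33, FDR 0.92) from P28 to adult. The first of these, and the 0.23 from P14 to adult (FDR 0.17), passed the test without either E18 library (0.20, FDR 0.078 and 0.081, and 0.23, FDR 0.045 and 0.046), which enter only through the shared estimate of the spread. The ratio of Cpt1a to Cpt2 in RPKM therefore moved within the libraries, from 0.306 and 0.210 at E18 to 1.57 and 1.504 (P14), 0.968 and 0.853 (P28) and 0.636 and 0.706 (adult).

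Of the 19 carnitine shuttle and fatty acid entry genes, 12 rose (38.2% of all genes) and 4 fell (39.3%) from E18 to P14. Their median log2 change was 1.20, against -0.03 over all genes and 2.22 for the 20 hepatocyte markers. From P14 to adult 9 rose and 6 fell, where 29% and 32.1% of all genes did, with a median of 0.24, and neither median moved when Acsl6 was set to its bound at 3 reads per library. The translocase Slc25a20 rose from 15.8 and 20.4 CPM to 119 and 121 at P14 (log2 2.73, SE 0.13, FDR 1.5e-07) and was at 95.4 and 91.2 in adult. Acacb, whose product makes the malonyl-CoA that inhibits carnitine palmitoyltransferase 1, kept another time. It stood at 2.22 and 2.48 CPM at E18, then 3.06 and 3.85 (P14), 113 and 94.9 (P28) and 77.2 and 101 (adult), and rose from P14 to P28 by 4.91 on the log2 scale (SE 0.18, FDR 6.8e-07). The ratio of Cpt1a to Acacb in RPKM was 18.6 (SD 2.66) at E18, 320 (SD 59.6) at P14, 7.16 (SD 0.674) at P28 and 6.37 (SD 1.07) in adult, with n = 2 at each stage. The acyl-CoA synthetase Acsl6, lowest of the list from E18 to P14, had 270 and 226 reads at E18, 1 and 0 at P14 and 28 and 25 in adult.

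Acadm, the medium-chain acyl-CoA dehydrogenase, changed once. It stood at 55.0 and 67.8 CPM at E18, then 232 and 224 (P14), 208 and 204 (P28) and 212 and 190 (adult). The fetal libraries lay apart and the P28 and adult libraries overlapped. The rise to P14 was 3.71-fold (log2 1.89, SE 0.12, FDR 8.6e-07), and adult was 3.28-fold above E18, or 1.57 on the log2 scale and so under 3-fold without E18 replicate 1. The change from P14 to P28 was -0.15 (95% interval -0.41 to 0.11, FDR 0.32) and that from P28 to adult -0.03 (-0.29 to 0.23, FDR 0.90). P14 to adult was -0.18 (FDR 0.22), and passed the test without E18 replicate 1 or 2 (FDR 0.089 and 0.09).

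All 18 genes of mitochondrial β-oxidation on the list rose from E18 to P14 (38.2% of all genes). Their median log2 change was 2.17, against 2.22 for the 20 hepatocyte markers. All 18 also rose from E18 to adult (39.5% of all genes), with a median of 1.93, against 2.51 for those markers. From P14 to P28, 2 rose (25.2% of all genes) and 4 fell (28.6%). From P28 to adult 1 rose (7.94% of all genes) and 1 fell (13.2%). From P14 to adult 1 rose and 5 fell (median -0.16), where 29% of all genes rose and 32.1% fell. Hadh, the short-chain 3-hydroxyacyl-CoA dehydrogenase, fell the most, from 974 and 1058 CPM at P14 to 463 and 399.6 in adult (log2 -1.24, SE 0.13, FDR 5.6e-05). Acadvl, the very long-chain dehydrogenase, rose from 118 and 142 CPM to 830 and 781 at P14 (log2 2.63, SE 0.12, FDR 1.5e-07) and was at 706 and 674 in adult. Acadl, the long-chain dehydrogenase, rose to 399 and 383 CPM at P14 and then fell to 276 and 273 at P28 (log2 -0.51, SE 0.10, FDR 0.0026). Hadha and Hadhb encode the subunits of the trifunctional protein. Hadha rose from 189 and 213 to 511 and 509 CPM, and Hadhb from 2.44 and 2.42 to 5.37 and 4.86, so that the listed level of the second subunit was far below that of the first in every library. How reads on Hadhb were counted is not given in the sources used here, and its level is uncertain.

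Ehhadh, the peroxisomal bifunctional enzyme, was the only one of the 7 that rose again after P14. It stood at 20.6 and 26.5 CPM at E18, then 284 and 277 (P14), 416 and 374 (P28) and 268 and 226 (adult). The P28 libraries were the highest, and all stages were apart, with adult just below P14. It rose 11.9-fold to P14 (log2 3.58, SE 0.15, FDR 8.5e-08) and 1.41-fold from P14 to P28 (log2 0.50, SE 0.14, FDR 0.018), and fell from P28 to adult (log2 -0.68, SE 0.14, FDR 0.014). The rise to P28 was 0.41 (FDR 0.11) without P28 replicate 1, and the fall to adult -0.57 (FDR 0.10) without adult replicate 2. P14 and adult differed by -0.18 (95% interval -0.50 to 0.13, FDR 0.29). The ratio of Ehhadh to Acadm in RPKM, which compares the peroxisomal and the mitochondrial gene within a library, was 0.230 and 0.239 at E18, then 0.750 and 0.758 (P14), 1.23 and 1.13 (P28) and 0.774 and 0.729 (adult).

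Of the 19 genes of peroxisomal β-oxidation, 18 rose (38.2% of all genes) and 1 fell (39.3%) from E18 to P14. Their median log2 change was 3.20, against 2.22 for the 20 hepatocyte markers. From P14 to P28, 10 rose (25.2% of all genes) and 3 fell (28.6%), with a median of 0.26. Hsd17b4, the other bifunctional enzyme, was at 307 CPM in both libraries at P14 and at 535 and 525 in adult. From P14 to adult Ehhadh changed by -0.18 on the log2 scale (FDR 0.29). The thiolase Acaa1b rose by 6.52 on the log2 scale (SE 0.25) and fell from P14 to adult by 1.27, but it is nearly identical to Acaa1a and the split of reads between them is uncertain. Abcd2, a transporter of very long-chain acyl-CoA, stood at 26.7 and 16.4 CPM at E18, then 118 and 105 (P14), 52.9 and 37.9 (P28) and 2.94 and 2.26 (adult), a fall of 5.42 on the log2 scale from P14 to adult (SE 0.29, FDR 1.4e-06).

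**Figure D2:**
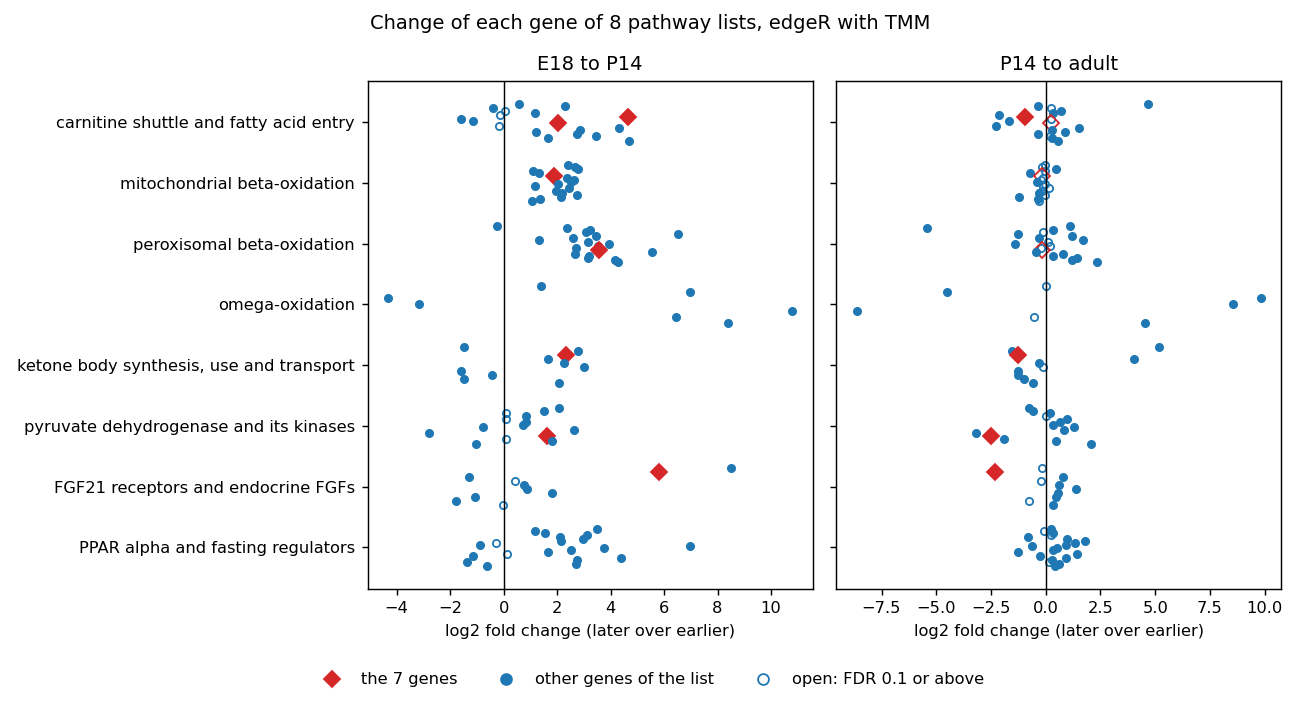
Log2 fold change of each gene of 8 pathway lists from E18 to P14 and from P14 to adult by edgeR with TMM, with the 7 genes as diamonds, other genes as circles and open symbols for an FDR of 0.1 or above. Acsl6 and Cyp4a31, at 3 reads or fewer in both libraries of a stage, are left out, and the 18 mitochondrial β-oxidation genes lie to the right of 0 from E18 to P14, while from P14 to adult 5 of them fell, Hadh the most at -1.24, and 1 rose.

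Bdh1, the 3-hydroxybutyrate dehydrogenase, was highest at P14 and fell at both later steps. It stood at 237 and 196 CPM at E18, then 1108 and 1087 (P14), 788 and 758 (P28) and 470 and 435 (adult), with no overlap between stages. It rose 5.06-fold to P14 (log2 2.34, SE 0.12, FDR 2.8e-07). It then fell by 0.51 to P28 (SE 0.12, FDR 0.0079) and by 0.77 from P28 to adult (SE 0.12, FDR 0.0037) on the log2 scale, and was 2.09-fold above E18 in adult (FDR 3e-05). That last rise was not past the test by library size alone (log2 0.21, FDR 0.14).

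Of the 10 ketone body genes tested, of 12 listed, 6 rose (38.2% of all genes) and 4 fell (39.3%) from E18 to P14. Their median log2 change was 1.85, against 2.22 for the 20 hepatocyte markers. From P14 to adult 2 of the 10 rose (29% of all genes) and 7 fell (32.1%). The median there was -0.79, against -0.03 over all genes. Acat1, a mitochondrial thiolase that makes acetoacetyl-CoA, also fell at both later steps, from 1657 and 1676 CPM at P14 to 735 and 807 (P28) and 573 and 557 (adult). Oxct1, which lets tissues other than liver use ketone bodies, fell from 44.4 and 49.7 CPM at E18 to 13.8 and 17.1 at P14 and 6.24 and 6.08 at P28. The monocarboxylate transporter Slc16a1, which carries ketone bodies across the membrane, fell at each step and by 1.71 on the log2 scale from E18 to adult (SE 0.16, FDR 8.5e-06). Bdh2, a cytosolic dehydrogenase named after Bdh1, went the other way, from 0.303 and 0.760 CPM at E18 to 1.63 and 1.68 (P14), 13.6 and 14.0 (P28) and 28.6 and 26.2 (adult), and rose from P14 to adult by 4.05 (SE 0.29, FDR 6.2e-06).

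By TMM, Pdk4 was the only one of the 7 that ended below its fetal level. It stood at 7.95 and 5.71 CPM at E18, then 17.7 and 24.9 (P14), 9.03 and 9.36 (P28) and 3.78 and 3.80 (adult). The duplicates differed by 1.39-fold at E18 and 1.41-fold at P14 and were nearly equal in adult, and no stages overlapped. It rose 3.12-fold to P14 (log2 1.64, SE 0.20, FDR 5.9e-05), fell by 1.21 to P28 (SE 0.20, FDR 0.0011) and by 1.28 from P28 to adult (SE 0.20, FDR 0.0046) on the log2 scale, and fell 5.62-fold from P14 to adult (FDR 1.5e-05). Adult was 1.80-fold below E18 (log2 -0.85, SE 0.20, FDR 0.0037). The rise to P14 was close to the 3-fold threshold, and it was 1.43 on the log2 scale without E18 replicate 2 and 1.39 without P14 replicate 2, both below 3-fold.

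The make-up of the pyruvate dehydrogenase kinases turned over around it. As a share of the summed RPKM of Pdk1 to Pdk4 within a library, Pdk4 made up 8.20 and 5.53% at E18, then 11.1 and 13.9% (P14), 3.80 and 3.69% (P28) and 1.28 and 1.501% (adult). Pdk3 held 35.1% (SD 2.34, n = 2) at E18, 2.99% (SD 0.106) at P14 and 0.204% (SD 0.0318) in adult. Pdk2, the form usual in adult liver, went from 19.1% (SD 0.546, n = 2) at E18 to 70.9% (SD 1.45) at P14 and 78.2% (SD 1.34) in adult, and Pdk1 from 38.9% (SD 0.998) to 13.6% (SD 0.668) and 20.2% (SD 1.15). Pdk4 was thus a minor kinase mRNA at every stage, and its share was highest at P14. By TMM, Pdk2 rose from E18 to P14 by 2.65 (SE 0.12, FDR 1.1e-07), and Pdk3 fell by 2.80 (SE 0.16, FDR 3.6e-07) and by a further 3.06 to P28. A list of 14 genes held pyruvate dehydrogenase, its kinases and phosphatases and the mitochondrial pyruvate carriers. Of these, 8 rose and 3 fell from E18 to P14 (median log2 0.78), where 38.2% of all genes rose and 39.3% fell. Pdha1, the catalytic subunit that the kinases phosphorylate, was at 80.5 and 83.5 CPM at E18 and 88.9 and 83.7 at P14 (log2 0.07, FDR 0.44), and rose to 166 and 168 in adult.

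**Figure D3:**
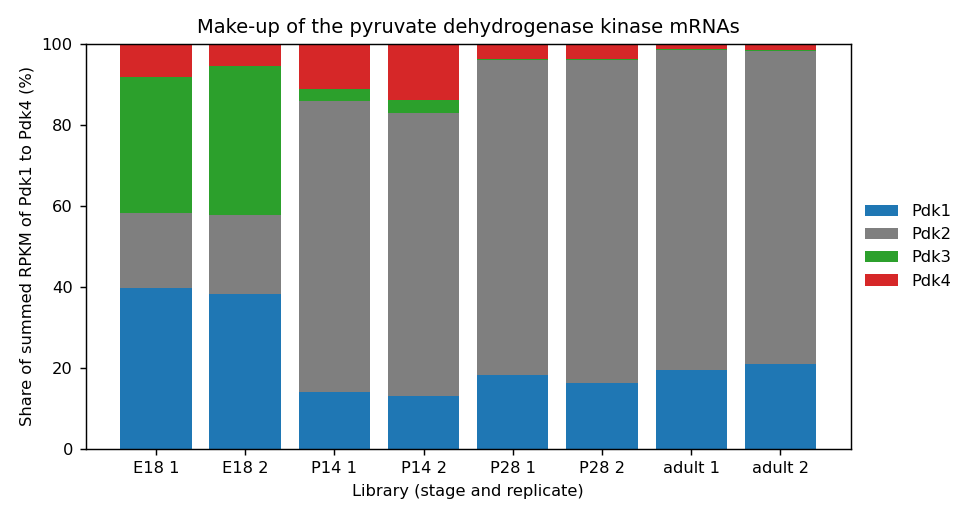
Share of each pyruvate dehydrogenase kinase in the summed RPKM of Pdk1 to Pdk4, in percent, as stacked bars for each library. Pdk1 and Pdk3 hold most of the bar in both E18 libraries and Pdk2 in all 6 postnatal ones, and the Pdk4 part is widest in the P14 libraries, at 11.1 and 13.9%.

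Fgf21, the fasting hormone, had the largest rise and the widest spread of the 7. It was counted by 13 and 19 reads at E18, then 820 and 446 (P14), 263 and 147 (P28) and 53 and 124 (adult), or 0.0937 and 0.155 CPM, 8.94 and 5.003, 3.29 and 2.06, and 0.911 and 1.87. The stages did not overlap, although the duplicates of a stage differed by 1.60-fold at P28 and up to 2.05-fold in adult. It rose 56.1-fold to P14 (log2 5.81, SE 0.50, FDR 6.7e-06) and fell 2.60-fold from P14 to P28 (log2 -1.38, SE 0.38, FDR 0.016). That fall was -0.90 (FDR 0.12) without P14 replicate 1, the higher of the P14 libraries, and passed 3-fold without P14 replicate 2 (-1.75) or P28 replicate 1 (-1.77). The change from P28 to adult was -0.94 (SE 0.405, FDR 0.17) and did not pass the test, but did by DESeq2 (-0.94, FDR 0.08). Adult was 4.98-fold below P14 (FDR 0.0012) and 11.3-fold above E18 (FDR 0.00021). Its biological coefficient of variation in the fit was 0.279, against 0.116 for the median gene, 0.147 for Pdk4 and 0.0859 to 0.111 for the other 5 genes.

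The receptors of Fgf21 changed less than the hormone. Klb, the co-receptor it needs, was at 25.9 and 23.4 CPM at E18, then 24.1 and 23.8 (P14), 38.0 and 37.9 (P28) and 31.0 and 28.6 (adult). From E18 to P14 it changed by -0.04 (FDR 0.70), and it rose to P28 by 0.67 (SE 0.09, FDR 0.00051). Fgfr4, the main FGF receptor of hepatocytes, rose from 21.8 and 21.5 CPM to 73.0 and 78.3 at P14 (log2 1.80, SE 0.09, FDR 1.8e-07). Fgfr1, the receptor that Fgf21 uses with Klb in fat, was at 10.2 and 8.33 CPM at E18 and 11.3 and 13.3 at P14 (FDR 0.17), fell to 4.49 and 5.32 at P28, and was at 7.36 and 13.5 in adult. Of 10 genes tested of this list, 5 rose and 3 fell from E18 to P14 (median log2 0.59), close to the shares over all genes (38.2% and 39.3%). Fgf1 rose the most, from 0.324 and 0.319 to 127 and 108 CPM. Fgf21 was the only one that fell from P14 to adult (32.1% of all genes), where 6 rose (29%).

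Most regulators of these genes rose from E18 to P14. Of 20 regulators of the PPARα and fasting programme, 14 rose (38.2% of all genes) and 4 fell (39.3%) from E18 to P14. Their median log2 change was 2.12, against 2.22 for the 20 hepatocyte markers. From P14 to adult 13 regulators rose (29% of all genes) and 4 fell (32.1%), with a median of 0.34. Ppara itself stood at 62.6 and 47.4 CPM at E18, then 285 and 339 (P14), 352 and 363 (P28) and 396 and 393 (adult), and rose to P14 by 2.50 (SE 0.15, FDR 6e-07) and from P14 to adult by 0.34 (SE 0.14, FDR 0.071). Its mRNA was thus not lower in adult than at P14, whereas those of Bdh1, Cpt1a, Pdk4 and Fgf21 were. The activity of the receptor was not measured, and its part in these falls was not tested. Rxra, the partner receptor of Ppara, rose to P14 by 2.73 (SE 0.11). Creb3l3, a liver transcription factor known to act on Fgf21, rose by 3.50 (SE 0.11). The coactivator Ppargc1a was highest at P14, as Bdh1, Cpt1a, Acadm, Pdk4 and Fgf21 were. It stood at 8.44 and 6.27 CPM at E18, then 28.5 and 18.5 (P14), 15.7 and 13.4 (P28) and 10.7 and 9.01 (adult). From P14 to adult it fell by 1.26 (SE 0.22, FDR 0.0013).

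Known fasting and PPARα targets mostly rose to P14 and then went both ways. Of 30 targets, a list that includes some of the 7 genes, 25 rose (38.2% of all genes) and 2 fell (39.3%) from E18 to P14. Their median log2 change was 2.02, against 2.22 for the 20 hepatocyte markers. From P14 to adult 7 targets rose (29% of all genes) and 14 fell (32.1%), with a median of -0.22. Angptl4, an inhibitor of lipoprotein lipase, rose to P14 by 1.97 (SE 0.18) and rose again from P28 to adult by 0.98 (SE 0.18, FDR 0.0078), where Pdk4 fell. The lipid droplet protein Plin2 rose to P14 by 1.55 (SE 0.13) and changed by 0.15 (FDR 0.34) from P14 to adult. Vnn1, a pantetheinase, fell from 31.2 and 34.6 CPM at P14 to 0.550 and 1.01 in adult (log2 -5.38, SE 0.24, FDR 5.9e-07).

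The size of the change from E18, and for some genes its direction, depended on the scaling. TMM set 1.598 and 1.539 as factors of the E18 libraries and 0.8466 to 0.8875 for the others, and scaling by library size alone moved the median of all genes by -0.87 on the log2 scale from E18 to P14. Under that scaling all 7 genes still rose to P14, by 3.78 for Cpt1a, 2.71 for Ehhadh, 4.95 for Fgf21, 1.47 for Bdh1, 1.17 for Cpt2, 1.03 for Acadm and 0.77 for Pdk4 (FDR 0.006), of which the first 3 passed 3-fold. From E18 to adult Bdh1 no longer passed the test on that scale, at 0.21 (FDR 0.14), and Pdk4 fell by 1.70, past 3-fold. Scaling to the 20 hepatocyte markers moved the median of all genes by -2.34. Relative to those markers, Cpt1a (2.32, FDR 9.7e-09), Ehhadh (1.24, FDR 2.3e-05) and Fgf21 (3.49, FDR 3.8e-05) still rose to P14, Bdh1 changed by 0.01 (FDR 0.96), and Cpt2 (-0.31, FDR 0.08), Acadm (-0.45, FDR 0.01) and Pdk4 (-0.69, FDR 0.0044) fell. From E18 to adult on that scale, Cpt1a (1.32) and Ehhadh (1.03) and, at FDR 0.054, Fgf21 (1.13) rose, Cpt2 changed by -0.10 (FDR 0.55), and Bdh1 (-1.29), Acadm (-0.65) and Pdk4 (-3.21) fell. Within the postnatal stages the same scalings moved the median of all genes by less than 0.1. The pathway lists were fitted by TMM alone, so their changes from E18 under the other scalings were not tested. The split of all calls over 3-fold from E18 to P14 was 13.8% higher and 15.4% lower by TMM, 7.41% and 29.8% by library size, and 2.76% and 72.7% by hepatocyte markers. From E18 to adult it was 16.8% and 23.8% by TMM, 9.68% and 36.1% by library size, and 4.28% and 70.5% by hepatocyte markers.

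**Figure D4:**
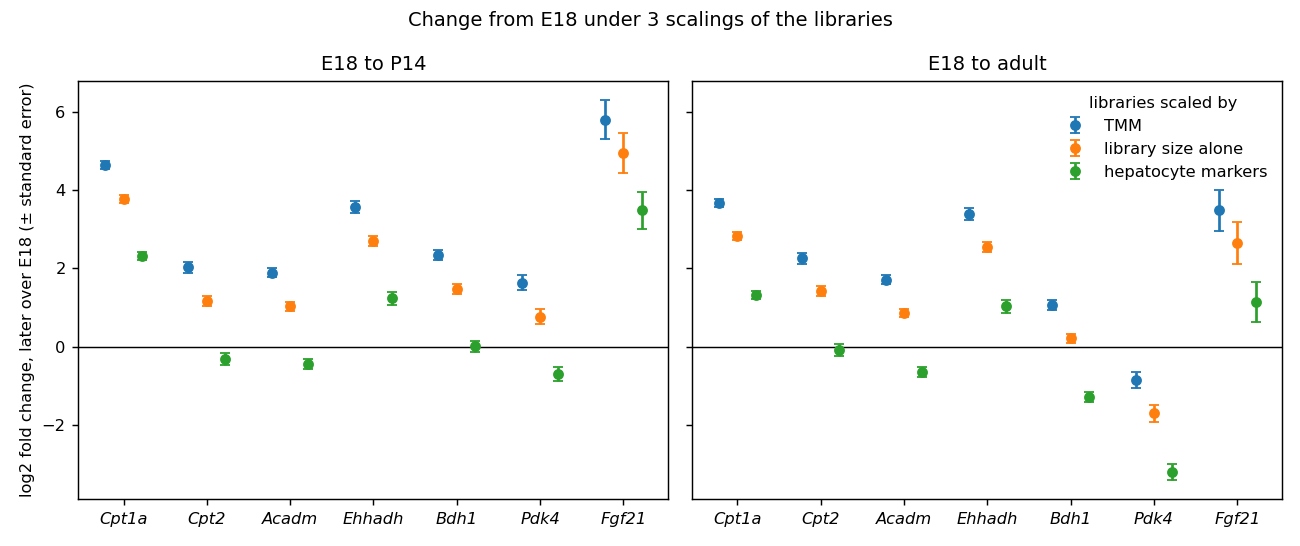
Log2 fold change from E18 to P14 and from E18 to adult for the 7 genes, with standard errors of the fit, under TMM, library size alone and hepatocyte marker scaling. Cpt1a, Ehhadh and Fgf21 lie above 0 under all 3 scalings in both panels, while Cpt2, Acadm and Pdk4 cross 0 from E18 to P14 under hepatocyte markers.

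Over the 8 libraries, the patterns most like those of the 7 genes were found among all other genes tested by Pearson's r of log2 CPM, as a description without a test. Such r are high for many genes because the step from E18 dominates them, and r above 0.95 was reached by 2255 genes for Cpt2, 1805 for Ehhadh, 1669 for Acadm and 1271 for Cpt1a, against 300 for Fgf21, 266 for Bdh1 and 82 for Pdk4. Nearest to Acadm was Etfa (r = 0.9987), which encodes a subunit of the electron transfer flavoprotein that takes electrons from acyl-CoA dehydrogenases, followed by Mir324 and Prdx1. Nearest to Cpt1a were Cfb (r = 0.9991), Xylt2 and Tnfrsf1a, and nearest to Cpt2 were Aadac (r = 0.9998), Abhd15 and Agxt2l1. Ehhadh was matched by Sgpl1, Perp and Plekhh3, and Fgf21 by Zfp513 (r = 0.9945), Gfer and Pnp. Pdk4 was matched by Col4a5 (r = 0.9936), Nfe2l3 and Igsf10, and Bdh1 by Gm7030 (r = 0.9972), Gm8909 and 2410017I17Rik, which had equal levels at E18, 0.951 and 0.842 CPM, and nearly equal levels later, so that shared reads may have been counted for each. Among the 7 genes themselves, Acadm and Cpt1a had r = 0.986 and Cpt2 and Ehhadh r = 0.983, whereas Pdk4 had r of 0.104 with Cpt2 and 0.67 with Bdh1, the lowest and the highest of its 6 pairs, and Bdh1 was nearest to Fgf21 at r = 0.958.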

How the data were processed

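The authors sequenced poly(A) RNA as read pairs, counted reads on each gene and deposited, per library, the raw count and the RPKM of 22059 gene symbols. The deposited RPKM were the authors' counts scaled by transcript length in kilobases and by 1000000 mapped reads. The submitters' processing notes name mm9, and the aligner is not given in the sources used here. RNA isolation is given as Trizol in the labels and as RNeasy in the Methods. The authors tested genes with DESeq.

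Here the counts were fitted in R (4.3.3) with edgeR (4.0.16). Genes were kept by filterByExpr (17081), scaled by TMM and fitted by glmQLFit over all 8 libraries with 1 coefficient per stage, and stages were compared by glmQLFTest with Benjamini-Hochberg adjustment over all genes tested. A gene is said to have risen or fallen at FDR below 0.1, and 3-fold is the threshold of the study. The SE is the log2 change over the square root of F, and intervals use the t quantile of the fit. With 2 libraries against 2, an exact permutation test cannot go below p = 0.333. RPKM were used for levels between genes, ratios within a library and limma (3.58.1) on log2(RPKM + 0.1). The fits were tested on simulated data in which few genes changed, as many up as down. Such data cannot test the scaling between stages of differing make-up. DESeq2 (1.42.0) was another alternative, with other scalings, filters and thresholds, the replicate number as a block and each library left out.

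Replicate numbers were taken from the labels. The correlation of same-numbered libraries' deviations from their stage means lay between -0.222 and 0.0861 over 6 pairs of stages, so the numbers were not treated as pairs.

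The genes named are the 7 members, partners listed by name, the extremes of each pathway list and the 3 nearest patterns of each member; some of them are not reported here. The members and lists were chosen with earlier results of these data known. Motifs were searched in RefSeq windows with Python (3.11.15). Splicing and protein were not analysed here.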

Additional observations from a re-analysis of the deposited data

How the results depend on the processing

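Of the 100 recomputed counts of members past FDR 0.1 and 3-fold, 90 stayed within 1.5 times the main count. These counts add rises and falls together, so a lost rise can be offset by a fall. From E18 to P14, the 7 genes became 3 by library size alone, 3 by limma on log2(RPKM + 0.1), 3 on log2(RPKM + 1) and 2 under hepatocyte marker scaling, and 6 to 7 with 1 library left out, losing Pdk4. From E18 to adult, the 5 rises became 2 by limma on log2(RPKM + 1). By library size alone, and by limma on log2(RPKM + 0.1), 3 rises and 1 fall were called. Under hepatocyte marker scaling none of the 5 was called, and the 1 call was the fall of Pdk4. A 2-fold threshold gave 2 genes from P14 to P28 and 1 from P28 to adult, by its construction. Without P14 replicate 2 or P28 replicate 1, Fgf21 passed 3-fold from P14 to P28, so that the count ranged from 0 to 1 over the libraries left out. Directions turned in 10 cases. Under hepatocyte marker scaling these were Cpt2 (-0.31), Acadm (-0.45) and Pdk4 (-0.69) from E18 to P14, Bdh1 (-1.29), Cpt2 (-0.10) and Acadm (-0.65) from E18 to adult, and Acadm (0.034) from P28 to adult. From P28 to adult, where neither gene passed the test, Cpt2 ranged from -0.032 (without P28 replicate 1) to 0.093 over the libraries left out, and was -0.028 without adult replicate 1, and Acadm ranged from -0.116 to 0.041 (without adult replicate 2). The scalings are different measures of the same reads, and the cause of the differences was not tested. With the replicate number as a block, the counts of members called were 7, 0, 0, 5 and 2 in the 5 comparisons, as without it, and no member's call changed. Where a library was left out, the remaining one of its stage was assumed to vary like the other stages. Depth limited Fgf21 at E18, at 13 and 19 reads.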

Other observations

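The ω-oxidation genes, which make dicarboxylic acids for the peroxisomal route of Ehhadh, included genes that rose to P14 and fell again by adulthood, such as Cyp4a14. Of 8 genes, 6 rose (38.2% of all genes) and 2 fell (39.3%) from E18 to P14. The median log2 change was 5.59 with Cyp4a31, at 3 and 1 reads at E18, set to its bound. From P28 to adult 4 fell (13.2% of all genes) and none rose (7.94%). Cyp4a14 was counted by 23 and 12 reads at E18, then 22942 and 20600 (P14), 1677 and 1542 (P28) and 43 and 32 (adult). It rose by 10.80 to P14 (edgeR, SE 0.22, FDR 3.8e-09) and fell by 8.63 from P14 to adult (SE 0.20, FDR 3.9e-08) on the log2 scale. Cyp4a10 had the same order, with 4 and 4 reads at E18, then 386 and 347 (P14), 232 and 203 (P28) and 14 and 8 (adult). Cyp4a12a ran opposite to it, with 96 and 85 reads at E18, then 1 and 5 (P14), 1425 and 2034 (P28) and 1721 and 2227 (adult). The Cyp4a genes are close copies of each other and the split of reads between them is uncertain.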
